A study of Mus musculus with 6 samples.

Results

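The 2 ooplast arrays of a series of 6 were examined here, 1 hybridised with RNA of ooplasts from young B6C3 F1 mice and 1 with RNA of ooplasts from climacteric B6C3 F1 mice. An ooplast is an egg from which the chromosomes have been removed, so that its RNA is the maternal cytoplasmic store. The other 4 arrays carried blastocysts, with 2 replicates from young and 2 from climacteric mice. The labels name the strain, the cell type and the age class of each sample; age in months and the number of cells pooled per array are not given in the sources used here. On each ooplast array, probes were ordered by processed signal, which is spot brightness in intensity units after the scanner software had subtracted background. A probe counted as above background where the software called it well above background. Of 19750 genes named on the array, 10869 (55.0%) had a probe above background on both ooplast arrays. A gene took its brightest such probe, genes were ranked on each array, and the 500 genes with the best mean rank are described (2.53% of the genes on the array). Position below means the place of a gene in this order. With 1 array per group no test between groups was possible, and every value of an ooplast group is 1 measurement. A position orders probes by brightness and not RNAs by copy number, because probes differ in how strongly they bind.

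A fully grown mouse oocyte is nearly silent in transcription and lives on RNA made during growth. That RNA includes transcripts found in few other cells, among them those for egg coat proteins, secreted growth factors, an oocyte linker histone and large families of leucine-rich-repeat and F-box proteins. Much of it is stored with short poly(A) tails and bound by repressor proteins, is translated or destroyed during meiotic maturation, and is largely replaced after the embryonic genome is switched on. By the blastocyst stage the embryo has made its own RNA.

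Promoters were read for the gene at the top of the order and for the 4 oocyte markers with an entry in the promoter table used, since these genes carry the identity of the sample. Each window runs from 250 bases before to 50 bases after the annotated gene start in RefSeq (GRCm38.p6), is 300 bases long and is written 5′ to 3′ on the strand of the gene. Capitals mark matches to TATAAA, the core of a TATA box, to TAATTG, core letters bound by the oocyte homeobox factor NOBOX, and to CANNTG, the E-box bound by factors such as FIGLA. All were searched on both strands, and no matches overlapped in these windows.

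H1f8, chr6:115944681-115944980, strand +: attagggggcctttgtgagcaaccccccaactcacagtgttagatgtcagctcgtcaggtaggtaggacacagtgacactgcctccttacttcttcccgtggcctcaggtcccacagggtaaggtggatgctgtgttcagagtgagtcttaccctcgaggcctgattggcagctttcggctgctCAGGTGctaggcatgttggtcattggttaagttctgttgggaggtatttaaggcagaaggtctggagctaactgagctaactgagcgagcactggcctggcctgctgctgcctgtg

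Oosp1, chr19:11691002-11691301, strand -: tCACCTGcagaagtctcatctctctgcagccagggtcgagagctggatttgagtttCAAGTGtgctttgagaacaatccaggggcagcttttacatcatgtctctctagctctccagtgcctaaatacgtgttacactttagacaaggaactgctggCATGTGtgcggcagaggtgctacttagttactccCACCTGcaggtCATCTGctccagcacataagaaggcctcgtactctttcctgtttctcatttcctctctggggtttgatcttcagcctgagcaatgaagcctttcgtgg

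Trim61, chr8:65018639-65018938, strand -: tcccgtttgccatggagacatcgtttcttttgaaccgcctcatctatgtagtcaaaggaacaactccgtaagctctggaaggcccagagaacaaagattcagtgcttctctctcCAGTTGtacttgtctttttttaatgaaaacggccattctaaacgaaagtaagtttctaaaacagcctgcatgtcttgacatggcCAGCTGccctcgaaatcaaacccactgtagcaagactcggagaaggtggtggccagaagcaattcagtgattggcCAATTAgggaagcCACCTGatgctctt

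Oog3, chr4:144162602-144162901, strand -: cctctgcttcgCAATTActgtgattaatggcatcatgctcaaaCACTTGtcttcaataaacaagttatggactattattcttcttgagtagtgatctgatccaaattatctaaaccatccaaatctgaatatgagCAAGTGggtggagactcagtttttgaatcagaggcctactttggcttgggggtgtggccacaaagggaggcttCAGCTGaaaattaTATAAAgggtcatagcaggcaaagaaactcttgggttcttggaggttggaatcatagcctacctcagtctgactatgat

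Zar1, chr5:72581035-72581334, strand -: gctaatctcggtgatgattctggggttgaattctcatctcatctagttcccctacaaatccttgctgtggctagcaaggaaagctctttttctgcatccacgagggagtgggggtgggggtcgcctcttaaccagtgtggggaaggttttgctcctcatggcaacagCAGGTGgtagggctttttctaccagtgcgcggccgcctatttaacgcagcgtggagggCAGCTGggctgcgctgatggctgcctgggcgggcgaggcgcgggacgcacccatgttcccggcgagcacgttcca

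H1f8, first in the order, had a single CANNTG, 66 bases before the gene start. Oosp1 had 5, of which the nearest lay 48 bases before the start. The window of Oog3 was the only one of the 5 with TATAAA, 29 bases before the start, and it also held TAATTG 239 bases before it. Trim61 held TAATTG 24 bases after the start, and Zar1 only CANNTG, at 83 and 25 bases before it. Of the 500 genes, 416 had a promoter in the table. TATAAA was found in 11.5% of them, TAATTG in 4.57% and CANNTG in 61.5%. Over the 8673 promoters of genes above background on both ooplast arrays TATAAA stood in 8.67%, TAATTG in 5.47% and CANNTG in 5554. Over all 27025 promoters of this length the shares were 14.2%, 8.15% and 72.1%. The median GC content was 62.0% for the 500 genes, 60.3% for genes above background and 52.7% for all promoters. The 14 matched promoters among the 21 members known mainly from the oocyte and egg had a lower median GC content, 47.0%. TAATTG stood in 4 of those 14 (28.6%) and CANNTG in all 14. These matches describe letters in the windows, and no binding was measured.

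The 5 markers given for the oocyte were all above background on both arrays and all among the 500. Oosp1, a secreted oocyte protein, read 526787 units in the young and 483050 in the climacteric ooplasts and took position 2. Gdf9, the TGF-beta-family factor by which the oocyte acts on its follicle cells, read 445920 and 451274 at position 4. Trim61, a tripartite-motif gene, read 236321 and 244570 at position 30. For these 3 genes the ooplast arrays lay close together. Oog3, an oogenesin of the PRAME-like leucine-rich-repeat group, followed at position 86 with 141666 and 168741, and Zar1, which binds stored maternal mRNA, at position 351 with 64374 and 62926. Of a wider list of 15 oocyte markers, all 15 were above background on both arrays, where 55.0% of all genes were. Their summed signal was 1.39% of the signal of all named genes in the young and 1.64% in the climacteric ooplasts. On the blastocyst arrays it was between 0.00583% and 0.0102%.

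Both ooplast arrays had similar depth: 11747 and 11805 genes above background, against 13148 to 14490 on the blastocyst arrays, with none of 153 negative control spots called above background on either. No ooplast spot was saturated. Probes printed in 10 spots varied between those spots by a median SD of 0.125 log2 units on the young and 0.114 on the climacteric array. The dimmest probe called above background read 49.6 units on the young and 58.1 on the climacteric array.

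The young ooplast array stood apart in 1 respect that touches the list. After each array was divided by its 75th percentile of signal, 293 genes above background on both were over 8-fold brighter on the young array and 2 on the climacteric array. Among the 500 members, 86 were over 2-fold brighter on the young array and 15 on the climacteric array, where 10.3% and 6.91% of all genes above background were. The plot of the 2 ooplast signals shows these genes as a second cloud below the diagonal. All 86 were in the young array's own top 500 but only 34 in that of the climacteric array. That split follows largely from choosing the 86 as members brighter on the young array. On the blastocyst arrays, which had no part in the choice, 69 of the 86 had their highest scaled value in replicate 2 of the young blastocysts, which was on the other slide from the ooplast arrays per the file headers, compared with 95 of the other 414 members. Their median SD over the 4 blastocyst arrays was 0.93 log2 units, against 0.243 for the other members. Other probes of the same gene read above background on both ooplast arrays for 21 of the 47 that had any (44.7%), against 174 of 221 other members (78.7%). Over all genes above background with other probes the share was 43.7%, near that of the 86. None of the 86 was a gene known mainly from the oocyte and egg. Ranked on the climacteric array alone, 433 of the 500 members kept their place in the top 500, and on the young array alone 384 did. The source of this pattern was not tested.

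**Figure D1:**
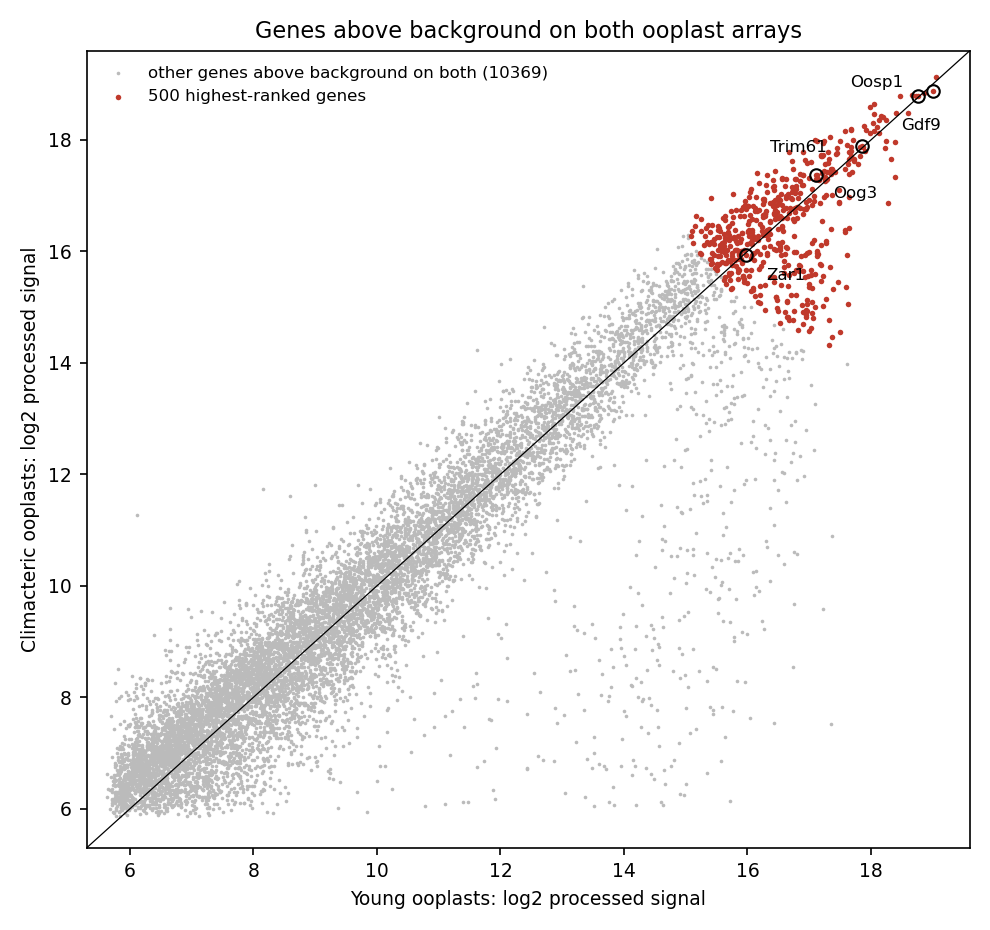
Log2 processed signal of the 10869 genes above background on both ooplast arrays, young on the x axis and climacteric on the y axis, with the 500 highest-ranked genes in red, the line of equal signal in black and the 5 oocyte markers circled. The markers lie on or near the line, while a cloud of genes that includes 86 of the 500 lies to its right.

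The order was led by H1f8, the linker histone that replaces somatic H1 in the oocyte. It read 544938 units in the young and 571942 in the climacteric ooplasts and was first on both arrays. Its probe read 2844 to 8384 on the 4 blastocyst arrays. Hpf1, which directs PARP enzymes to serine residues at DNA breaks, was at position 3 with 474336 and 471774 units and stayed bright on the blastocyst arrays, at 185176 to 238207. The mitochondrially encoded COX2, a subunit of cytochrome oxidase, read 432613 and 453088 at position 5, although the file places its probe on chromosome 1 (mm8, chr1:24569175-24569234). Spin1, a chromatin reader found on the meiotic spindle, read 417529 and 457597 at position 6. Atxn2l, an ataxin-2-like RNA-binding protein, read 362200 and 450738 at position 7. Among the first 100 positions, 98 genes were within 2-fold between the 2 ooplast arrays. A place there needs a high rank on both arrays, so this closeness is in part built in. Of all genes above background on both, 10.3% were over 2-fold brighter on the young array and 6.91% on the climacteric array.

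The remaining genes of the first 40 mixed oocyte transcripts with genes of general cell function. Oocyte genes were Khdc1b (396167 and 367777 units), Oog1 (287270 and 287224), Bcl2l10 (310163 and 257870) and Oas1d (238761 and 241510). Bcl2l10 encodes a Bcl2-family protein best known from oocytes, and Oas1d an oligoadenylate synthetase-like protein of the ovary. Itpr2, an inositol trisphosphate receptor that releases stored calcium, read 272225 and 293220. The homeobox gene Meis2 read 246274 and 227746. Cell cycle genes were Pttg1, which encodes securin, Cdca5, which encodes sororin, Cdc20, the activator of the anaphase-promoting complex, and Cks1b, a partner of cyclin-dependent kinases. Pttg1 read 307310 and 237108, and Cdc20 read 196066 and 293190. Protein modification and turnover were represented by Dcaf8 (260327 and 392534), Psmd3, a proteasome subunit (210520 and 297142), and Rnf114, a ubiquitin ligase. Energy metabolism was represented by ND4L, CYTB, Gyg, the primer protein of glycogen, and Ldhb, the heart-type subunit of lactate dehydrogenase (208711 and 229271). Others of the first 40 were Fam220a, Tmcc3, Abhd4, Dclk2, Cnppd1, Csnk1e, Serf2, Mllt3, the histone variant gene H3f3b, Smagp, Unc50, Dpy30, Snrpg and the clone-named AA792892.

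**Figure D2:**
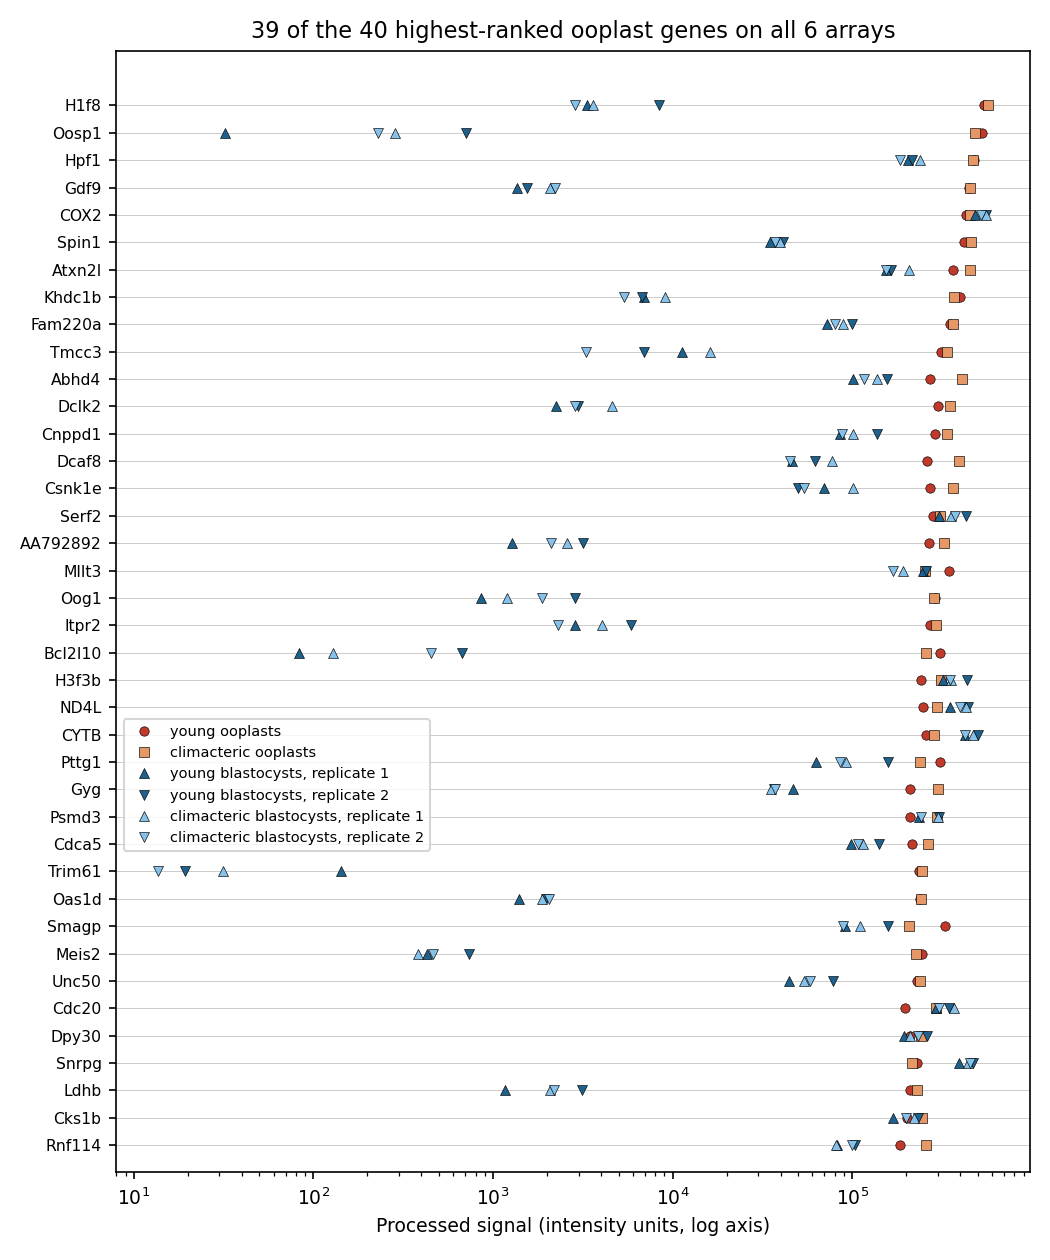
Processed signal of 39 of the 40 highest-ranked ooplast genes on all 6 arrays, 1 point per array, on a log axis, with ooplast arrays in red and orange and blastocyst arrays in blue. The ooplast points lie between 185422 and 571942 units, and the blastocyst points run from 13.6 units for Trim61 to 557988 units for COX2.

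Of the 500 members, 312 were given to 15 roles by hand after the members were known, and 188 were left without a role. The largest roles were ubiquitin, SUMO and proteasome with 32 members, cell cycle and spindle with 30, chromatin with 30 and transcription with 29. Genes known mainly from the oocyte and egg numbered 21, and 12 of these stood in the first 100 positions, more than of any other named role. Their median position was 47, against 259 for members without a role. Zar1, at position 351, was placed with maternal mRNA storage and is not 1 of the 21. Positions come from the same values that chose the members, so these are descriptions.

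The oocyte and egg group held several families in which members resemble each other closely, so that a probe can also bind the RNA of a relative. Oog1 and Oog3 were the oogenesins among the 500, while Oog4 lay at position 1803 and Oog2 at 6904. Pramel32 (209322 and 213881 units) and Pramel13 (205835 and 206956), also of the PRAME-like group, were at positions 43 and 47. Of all genes on the array, 55.0% were above background on both arrays and 2.53% were among the 500. Of 11 oocyte F-box Fbxw genes, all 11 were above background on both arrays, and Fbxw19 (96408 and 89073) and Fbxw18 (64679 and 51700) were among the 500. Fbxw27, a gene of the same family that the list does not hold, was also among them at position 320 with 70408 and 64633 units, and read 254.4 to 559.7 in the blastocysts. All 8 oocyte Nlrp genes outside the subcortical complex were above background, led by Nlrp4f (69292 and 62343) and Nlrp4a (49883 and 71901). The 2-5A synthetase-like Oas1e stood at position 186 and Tex19.1, a germ-cell gene that restrains transposons, at 302.

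Genes for the egg coat and its secreted partners spread over the whole range. Oosp1 was at position 2 and Oosp3, its neighbour on chromosome 19, at 366 with 53091 and 75282 units. The zona pellucida genes, which encode the coat around the egg, were far lower. Zp3, the sperm-binding component, read 9099 and 12345 at position 1522 and its other probe 5414 and 8683. Zp1 read 324.5 and 268.4 at position 7089. Zp2 read 125.6 and 85.51 at position 9856, near the limit of detection. Growth factors followed the same spread: Gdf9 was at position 4, Fgf8 at 122 and Tgfb2 at 195, while Bmp15, the partner of Gdf9, read 24278 and 26384 at position 898. Kitl, a factor made by follicle cells, was above background on neither array (12.21 and 12.31).

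All 7 listed genes of the subcortical maternal complex, a protein assembly under the egg membrane, were above background on both arrays. Of all genes on the array 55.0% were, and 2.53% were among the 500. Of the 7, only Tle6 was among the 500, with 50148 and 81292 units at position 372. Nlrp2, Khdc3 and Ooep lay between positions 1320 and 1760, and Padi6 at 2397. Nlrp5, the founding maternal-effect gene of the complex, had 1 probe, which read 152 and 224.6 at position 8210.

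None of the 12 genes listed as oocyte transcription factors was among the 500. With 2.53% of all genes there, a list of this length would hold few or none. Rfpl4, a RING-finger gene and not a transcription factor, stood first of the list at position 1054. Lhx8 followed at 1099, and Nobox read 4556 and 2152 at position 2817. Figla (34.61 and 12.58) and Obox6 (10.96 and 56.2) were above background on neither array. Of the 7 Tcl1-family genes all were above background, where 55.0% of all genes were, led by Tcl1 itself (29208 and 38747, position 706).

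Genes for storage, translational control and decay of maternal mRNA contributed 5 of a list of 20 to the 500. Lsm14b, a component of repressor particles in oocytes, read 204757 and 171754 units at position 54. Cpeb1, which binds the cytoplasmic polyadenylation element, read 143308 and 61553 at position 191 and was 1 of the 86 genes brighter on the young array. Cnot6l, a deadenylase that removes poly(A) tails during maturation, read 81637 and 62515. The list was completed in the 500 by Zar1 and by Ybx2, an RNA-masking protein of germ cells (38332 and 64611 at position 495). Btg4, an adapter of the same deadenylase complex, lay at position 1043, and Dcp1a at 1073. Zfp36l2 was the only gene of the list above background on neither array (46.04 and 55.48). Further members with such functions were Eif1, Ybx1, Slbp, which binds histone mRNA, and Cnot3.

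Of 32 listed chromatin and reprogramming factors, 7 were among the 500 (21.9%, against 2.53% of all genes). Besides H1f8 these were both genes for histone H3.3, the chaperone Asf1a, the nucleoplasmin relative Npm3, Dppa3 and Kdm4a. H3f3b read 241505 and 310404 units and H3f3a 78068 and 100333. Dppa3, which shields maternal DNA methylation after fertilisation, read 66446 and 47996 at position 405. Npm2, the egg nucleoplasmin, lay at position 991, and Dnmt3a, the enzyme that sets maternal methylation marks, at 856. Hdac2 and Tet2 were above background on neither array. Hdac1 was 1 of the genes far apart between the arrays, with 48684 units in the young and 1040 in the climacteric ooplasts.

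Of 27 listed genes of M phase and meiotic arrest, 22 were above background on both arrays (81.5%, against 55.0% of all genes). Among the 500 were 3 (11.1%, against 2.53% of all genes). These were Pttg1, Cdc20 and Cdc25b, the phosphatase that starts meiotic resumption in mice (116447 and 51614 units). Cdc25b was 1 of the 86 members over 2-fold brighter on the young array. Ccnb2, Aurka and Ccnb1, which encode cyclins B and Aurora A, followed at positions 744, 824 and 911. Aurka, with 61072 and 14542 units, was also over 2-fold brighter on the young array. Mos, the kinase that holds the egg in metaphase, read 473.4 and 435.1 at position 6120. Cdk1, the kinase of M phase itself, was above background on neither array on either of its 2 probes (12.15 and 16.62), and Ccnb3 and Gpr3 were likewise not above background. Among all 500, other cell cycle members included the midzone protein gene Prc1, Numa1, Ube2s, Cenpe, Cdca8 and Birc5.

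Of 16 listed genes of fertilisation and egg activation, 14 were above background on both arrays (87.5%, against 55.0% of all genes). Among the 500 was 1 (6.25%). That gene, Rgs2, a G-protein regulator, read 169424 and 131877 units at position 83 on 1 probe, while its other probe read 10.29 and 12.3. Itpr1 followed at position 627. Cd9, the egg membrane protein needed for fusion, lay at 6918, and Izumo1r, the egg receptor for the sperm protein IZUMO1, at 6733. Trpv3 was above background on neither array. Of 16 genes of the small RNA pathway none was among the 500, where a list this short would hold few or none at the 2.53% of all genes. Ddx4, the germ-cell helicase, led them at position 860.

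Housekeeping functions were uneven. Of all genes on the array, 2.53% were among the 500. Of 84 cytosolic ribosomal protein genes, 81 were above background on both arrays and 10 were among the 500, led by Rps16 (166800 and 183400 units), Rps12 and Rps2. Of 83 oxidative phosphorylation genes of the nucleus, 4 were among the 500, namely Uqcrc2, Atp5b, Cox8a and, at position 500, Cox5a. Of 78 mitochondrial ribosomal protein genes only Mrpl3 was (1.28%). Of 39 proteasome genes 3 were, Psmd3, Psmb3 and Psma2. Ldhb was the 1 of 22 glycolysis genes among the 500 (4.55%), where so short a list would hold few or none. Ldha, the muscle-type partner of Ldhb, read 599 and 202.2 at position 6813, and Gapdh read 1009 and 1804 at position 4026. Eno1 and Slc2a3 were above background on neither array. In the cytoskeleton Tuba1c read 122894 and 104226 at position 138, while Actb read 1179 and 1576 at position 3970. Among protective enzymes Prdx2 (179878 and 237917) and Sod1 (92568 and 72592) were among the 500, and catalase, Cat, was above background on neither array (9.875 and 11.54). Bcl2l10 was the 1 Bcl2-family gene of 16 among the 500 (6.25%), and Bad and Hrk were above background on neither array. Of 21 heat shock and chaperone genes 1 was among the 500 (4.76%). It was Hspa9, the mitochondrial chaperone (110003 and 65050), and Hsf1, the maternal heat shock factor, lay at position 756. Of 21 pluripotency factors 13 were above background on both arrays (61.9%, near the 55.0% of all genes). None of them was among the 500, and Dppa2 came nearest with 46150 and 49586 units.

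**Figure D3:**
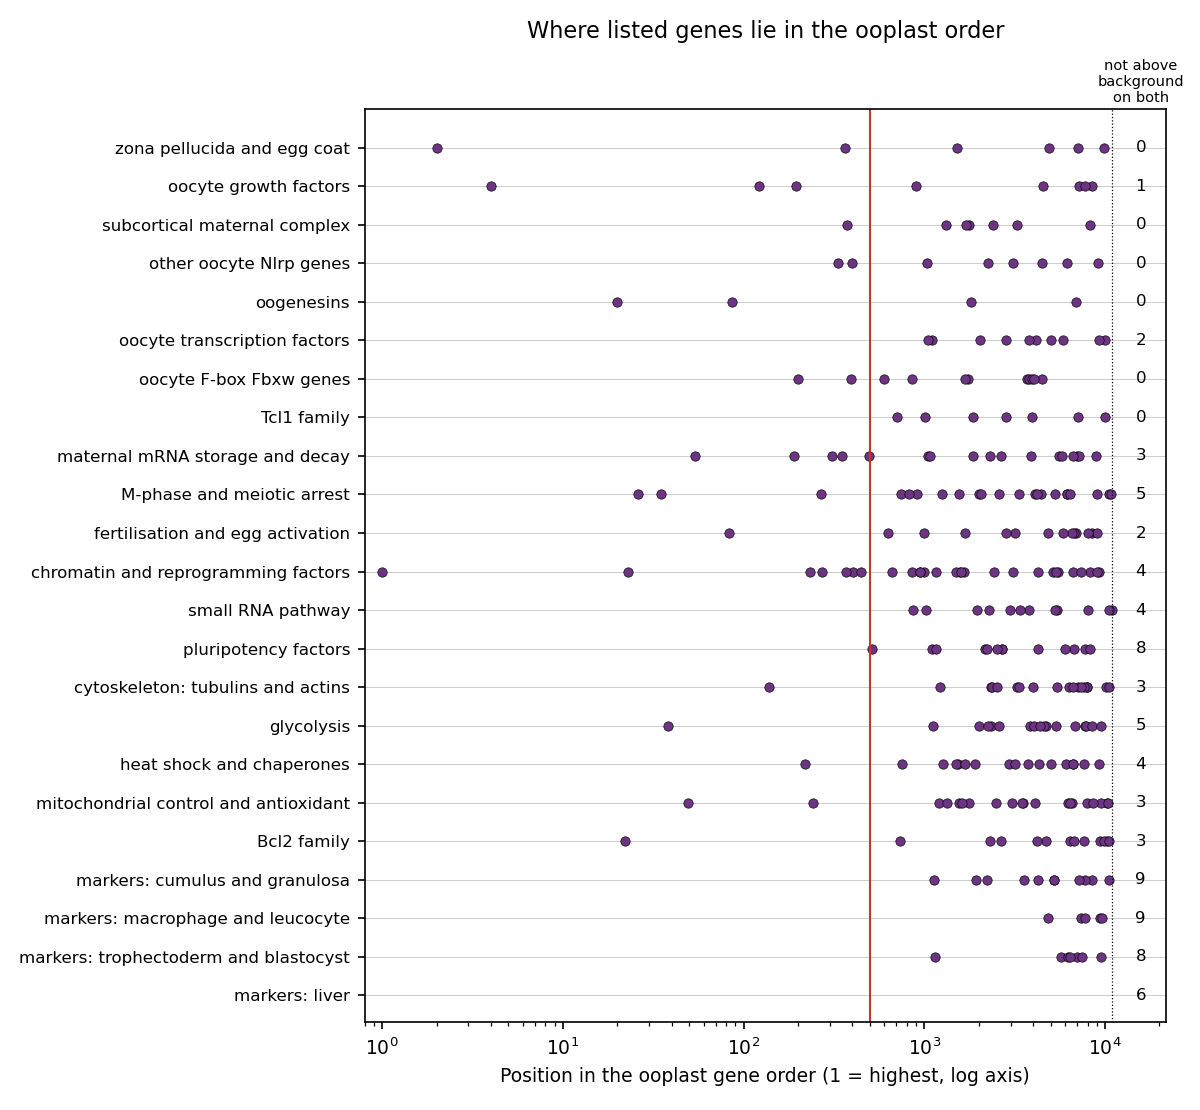
Position in the ooplast order, on a log axis, of the genes of each list, with 1 point per gene above background on both ooplast arrays and, at the right, the number of listed genes on the array that were not. The red line marks position 500. Oocyte lists reach the left edge with H1f8, Oosp1 and Gdf9 but also run to the right, where Zp2 stands at 9856 and Taf4b, an oocyte transcription factor, at 9981.

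Gene families differed widely in the share above background on both ooplast arrays, which for all genes was 55.0%. Of 33 families counted by gene symbol, 13 had a larger and 20 a smaller share. Cytosolic ribosomal proteins stood highest at 96.4%, followed by oxidative phosphorylation at 89.2%, translation initiation factors at 88.7%, and proteasome subunits and mitochondrial ribosomal proteins at 87.2% each. F-box genes reached 80.6%, with 58 of 72 above background. Solute carriers, at 53.5%, and zinc finger Zfp genes, at 49.9%, lay near the share of all genes. Families with few detected members were taste receptors (3 of 16), vomeronasal receptors (25 of 129, 19.4%), olfactory receptors (188 of 906, 20.8%), chemokines (7 of 33), beta-defensins (7 of 28), GABA receptor subunits (5 of 18), protocadherins (12 of 43) and Hox genes (11 of 38). These counts depend on the detection call. With the software's weaker call of a positive and significant signal, which 14961 of all genes met, they were 6 taste, 46 vomeronasal and 454 olfactory receptors, 23 chemokines, 14 beta-defensins, 11 GABA receptor subunits, 25 protocadherins and 22 Hox genes.

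16 of the 33 families had no member among the 500. At the 2.53% of all genes, short families would often hold none. No olfactory receptor was among the 500, and the brightest, Olfr860, read 99194 units in the young and 17660 in the climacteric ooplasts. The median position of the detected olfactory receptors was 8844, against 5435 for all detected genes. Hoxa7 led the Hox genes at position 740. Among families tied to nerve and connective tissue, single members reached the 500: Kcnmb2, a subunit of a potassium channel (113498 and 65416), Gabrd, a GABA receptor subunit (92345 and 31403), and Col7a1, a collagen (134704 and 34932). Ranked on the climacteric array alone, the 500 held no collagen and no GABA receptor subunit. On the young array alone the brightest 500 held 1 olfactory receptor. Of 9 Y-linked genes 2 were above background (22.2%), Zfy1 and Kdm5d, with Zfy1 ahead at position 7202. Eggs come from females, without a Y chromosome, and 2 of 9 genes are too few to give a rate for such calls. What these probes bound was not tested.

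**Figure D4:**
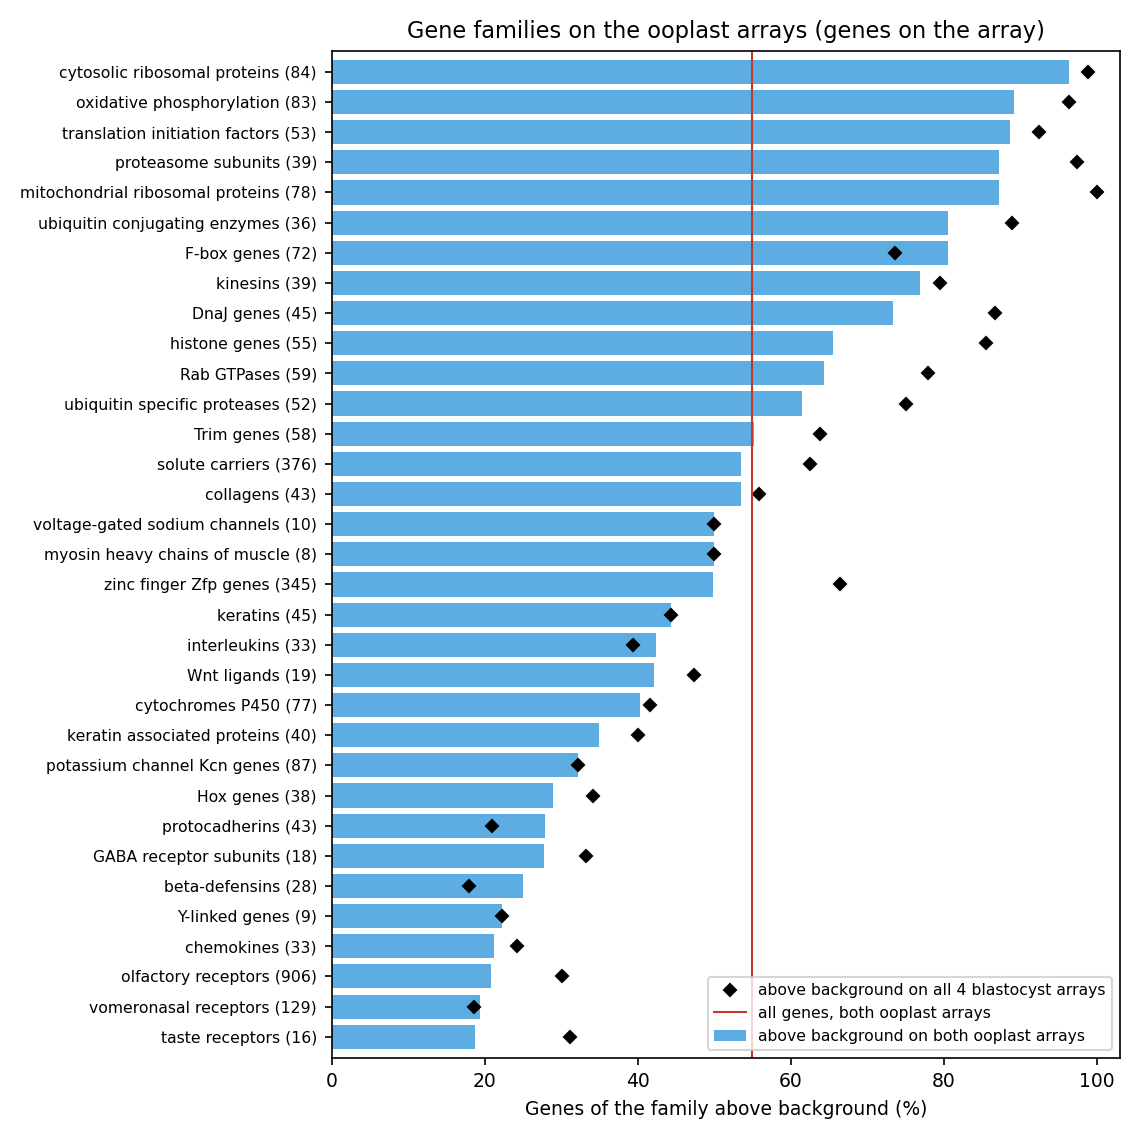
Share of genes above background on both ooplast arrays in 33 gene families, as bars, with the number of genes on the array in brackets, the share above background on all 4 blastocyst arrays as black diamonds and the share of all genes, 55.0%, as a red line. Ribosomal, respiratory, initiation factor and proteasome families reach 87.2% to 96.4% on the ooplast arrays, and receptor families of smell and taste 18.8% to 20.8%.

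Markers of other cells that a sample of ooplasts could carry were checked. None of the listed genes was among the 500, although ranked on the young array alone 1 cumulus and granulosa marker was. The 500 are 2.53% of all genes, and at that share lists this short would also hold few or none. Of all genes on the array, 55.0% were above background on both ooplast arrays, the share to set beside each count on both arrays below. Of 20 cumulus and granulosa markers 11 were, also 55.0%. Cyp19a1 led these markers (18549 and 17751 units), while Fshr, Lhcgr, Star and Has2 were above background on neither array. The summed signal of the 20 markers was 0.104% of all named genes in the young and 0.031% in the climacteric ooplasts. Most of the gap was Inha, which read 81908 and 1652. Inha was thus 1 of the 293 genes over 8-fold brighter on the young array, a pattern whose source was not tested. Of 14 macrophage and leucocyte markers, 5 were above background in the young and 10 in the climacteric ooplasts. Of all 19750 genes, 11747 and 11805 were. Lyz2 read 10.55 and 3663 units, and Ccl5 read 11.78 and 1677. Ptprc and Itgam were above background on neither array. The summed leucocyte signal was 0.00094% in the young and 0.0124% in the climacteric ooplasts, and its part in any value of the 500 was not tested. On the blastocyst arrays it ran from 0.00121% to 0.0152%, highest in replicate 1 of the climacteric blastocysts. Of 6 liver markers none was above background on both arrays, and of 4 erythroid markers 2 were, with Hba-a1 at 243.5 and 434.6 units. Of 8 fibroblast and stroma markers 3 were, led by Vim (953.5 and 730.1), and of 5 markers of genome activation at 2 cells only Zscan4c was (60.71 and 95.36). Of 15 trophectoderm and blastocyst markers 7 were, led by Dab2 (14879 and 21472), while Nanog, Sox2, Eomes, Elf5, Tead4 and Id2 were above background on neither ooplast array. Of 10 sperm markers 4 were, led by Acr (7099 and 6052). In pooled RNA, fewer cells of a type and less RNA per cell cannot be told apart.

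Members best known from tissues other than the egg numbered 25. They included Celf3, a neuronal RNA-binding protein (195694 and 83315 units), Pax2, a kidney and eye homeobox gene (131027 and 64799), and H2-Ab1, a class II histocompatibility gene of immune cells (127462 and 31175). Of these 25, 15 belonged to the 86 genes brighter on the young array. The 3 other probes of H2-Ab1 read between 10.32 and 37.38 units on the ooplast arrays and were not above background. The other 10 included Cpa1, a pancreatic peptidase (140217 and 261591), and Ms4a1, the B-cell antigen CD20 (78304 and 80697), whose other probe also read above background on both arrays (1646 and 915.8).

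Most of the 500 were also bright in blastocysts. The probes of 480 (96.0%) were above background on all 4 blastocyst arrays, compared with 87.8% of all genes above background on both ooplast arrays, and 5 were above background on none. The median percentile of the 500 among all probes lay between 96.04 and 96.97 on the 4 blastocyst arrays, against 80.27 to 80.39 for all detected genes and 92.5 to 94.21 for the next 500 genes in the order. Because the 500 were chosen as the brightest in ooplasts, a lower place elsewhere follows in part from that choice. In 304 of the 500 the median percentile over the blastocyst arrays was 95 or more, and in 15 it was below 50.

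Of those 15, 7 belonged to the oocyte and egg group. The lowest was Oosp3, with 13.05 to 41.66 units on the 4 blastocyst arrays and a median percentile of 8.4. Lrrc17, a secreted leucine-rich-repeat gene, read 86961 and 120798 units in the ooplasts and 13.25 to 97.55 in the blastocysts. Oog3 read 14.16 to 20.86 and Trim61 13.6 to 142.7 in the blastocysts. Zar1 read 35.11 to 61.45 and was above background on no blastocyst array. Fbxw18, Ms4a1, Rgs2, Nlrp4a, Fbxw19, Accsl, Slco3a1, Cxcr3, Pramel32 and a clone-named gene completed the set. Cxcr3, a chemokine receptor, read 36658 and 102386 units in the ooplasts, 1 of 15 members over 2-fold brighter on the climacteric array. In contrast Dppa3 and Tex19.1, also in the oocyte and egg group, read 104090 to 263143 and 74526 to 145383 units in the blastocysts.

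**Figure D5:**
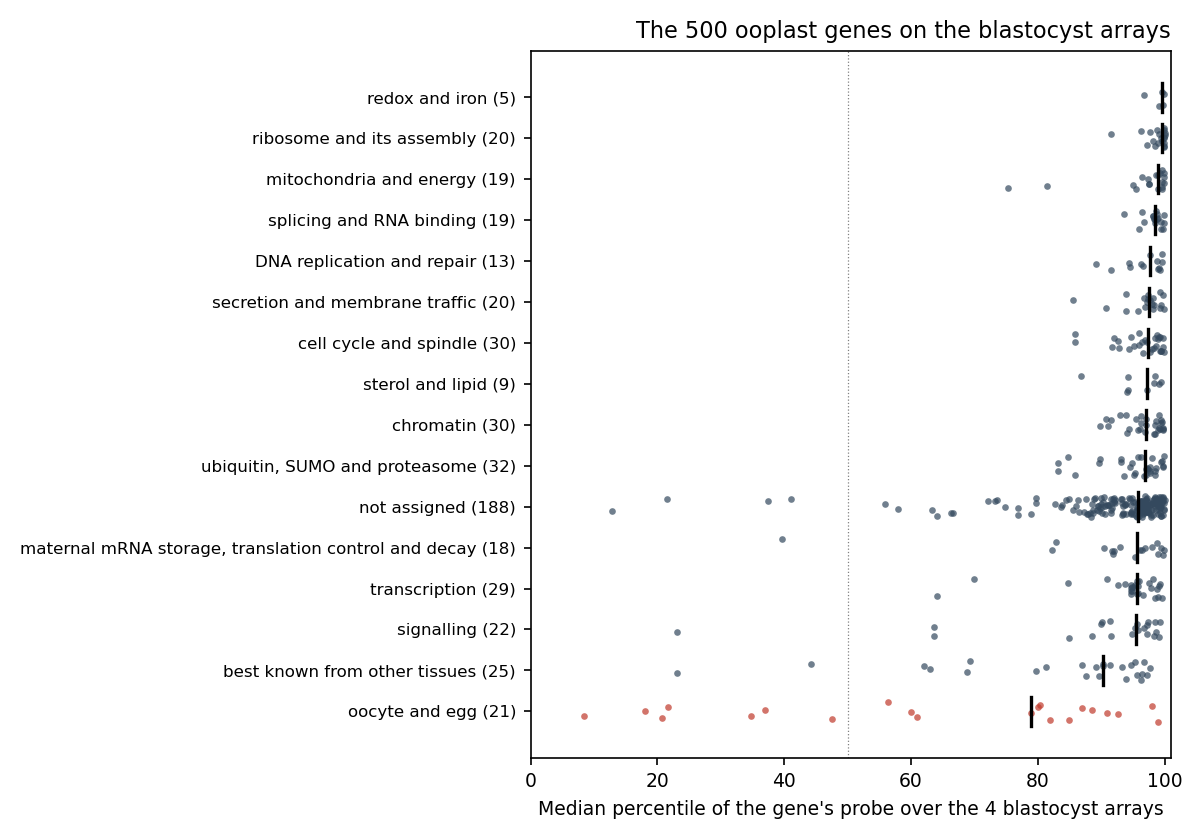
Median percentile of each of the 500 members' probes over the 4 blastocyst arrays, by role, 1 point per gene, with the number of members in brackets and the median of each role as a black bar. The oocyte and egg group, in red, has the lowest median (78.9) and starts at 8.4, while ribosomal members lie at 91.6 or above.

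At the other end stood ribosomal and cytoskeletal members. Rpl23a read 102720 and 68185 units in the ooplasts and 606612 to 779921 in the blastocysts. Myl6, a myosin light chain, read 100900 and 111826 in the ooplasts and 559734 to 663260 in the blastocysts. Rps28, Fau, Rplp2 and Rps12 followed. Across the series, 413 genes were in the top 500 of all 4 blastocyst arrays, and 109 of them were among the 500 ooplast genes (21.8% of the ooplast list and 26.4% of the blastocyst list). Of all genes above background on both ooplast arrays 3.73% were in that blastocyst set. By role, 13 of 20 ribosomal members and 10 of 19 members of mitochondria and energy belonged to it, and none of the 21 oocyte and egg genes did. 88 genes were in the top 500 of all 6 arrays, among them Hpf1, COX2, Atxn2l, Serf2, Mllt3, H3f3b and Cdc20, and 349 members were in the top 500 of no blastocyst array.

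The lists of the 2 ooplast arrays, each ranked by itself, shared 324 of 500 genes (64.8% of each list). Pairs of blastocyst arrays shared 432 to 465, and an ooplast array and a blastocyst array 107 to 136. Over all detected genes the log2 signals of the ooplast arrays correlated with Pearson's r = 0.919 and over the 500 members with r = 0.511. Both describe genes, which share their arrays. The 500 were chosen as the brightest, which narrows the range of signal and lowers r, so the 2 values cannot be compared. The median absolute gap between the scaled ooplast arrays was 0.44 log2 units for the 500 and 0.473 for all detected genes. The members with the largest difference in rank were Ccdc85b (position 81 of the young and 1011 of the climacteric array), Dcps, Zfp13, Rgs4, Entpd7 and Arl6ip6, all brighter on the young array. Signal was concentrated in few genes. The brightest 100 genes carried 21.3% of the summed signal of named genes in the young and 26.1% in the climacteric ooplasts, against 16.8% to 18.5% on the blastocyst arrays. The brightest 500 carried 57.0% and 61.2%, against 48.0% to 51.3%.

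The boundary of the list was not sharp. The last 3 genes inside were Gm16464 (38987 and 63452 units), Cnpy4 (51809 and 43957) and Cox5a (54551 and 41229). The first 3 outside were Rhobtb1 (33646 and 80134), Tob2 (43423 and 55158) and Pcgf1 (48598 and 47906). These values overlapped. The mean log2 signal of 84 genes lay within 0.125 units, the SD of repeated spots, of the 500th gene.

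A gene's position rested on its brightest probe, and other probes of the same gene often read far lower. Of the 500 members, 268 had other probes, and in 195 of these (72.8%) at least 1 was above background on both ooplast arrays. The same share was 68.7% in the next 500 genes and 43.7% over all detected genes with other probes. Both probes of Oosp1 agreed, with 451757 and 525814 units on the other one. Spin1 read 417529 and 457597 on its chosen probe but 2012 and 1078 on its other probe. The 2 other probes of Sod1 read 12.19 to 19.3 units and were not above background. For Mllt3, the chosen probe read 167875 to 258565 on the blastocyst arrays, whereas another probe that read 62680 and 76421 in the ooplasts read 478.6 to 1628 there. Probes of 1 gene thus gave different stage patterns, and which of them follows the gene's RNA was not tested.

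The members were spread over all chromosomes but Y. Of genes placed by the files (mm8), the X chromosome held 7 members (1.4%, against 2.98% of detected genes), chromosome 5 held 47 (9.4% against 6.24%) and chromosome 19 held 30 (6.0% against 3.69%). In RefSeq gene order 19 pairs of members were neighbours, against 15 pairs among the next 500 genes. They included Oosp1 with Oosp3, Fgf8 with Npm3 and Ybx1 with Ppih.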

How the data were processed

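RNA of 6 samples was hybridised to single-colour (Cy3) Agilent mouse 4x44K arrays. Per the labels' protocols, RNA was extracted with RNeasy Mini columns without DNase treatment, then amplified and labelled. Per the file headers, Feature Extraction 9.5 made the processed intensity values by subtracting a spatially fitted background, with surrogate values near background and no scaling between arrays, and probes were placed on mm8. By their slide codes, the second-replicate blastocysts shared slide 2, while the other 4 samples were on slide 1. The authors also deposited log2 values of the same arrays, which were quantile normalized as judged from the values, and these served as an alternative.

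Control and flagged spots were left out and repeated spots averaged. Of 41174 probes, 24375 were named through a RefSeq accession, 6301 through a current symbol and 2426 through a synonym (GRCm38.p6 gene table), and 8072 were unmatched; 29 unmatched probes were as bright as the 500th gene. Ranks used processed signal, and folds between the ooplast arrays used signal divided by each array's 75th percentile. Python 3.11.15, pandas 2.3.3, numpy 2.4.6, matplotlib 3.10.9, R 4.3.3 and limma 3.58.1 were used, and the ranking was tested on simulated data. Each ooplast group has 1 array, so no test was run, and the number of arrays limits the precision. Named with values were the first 40 genes, the 5 markers, up to 6 best-placed genes of each list or family and those above background on neither array, the 12 lowest and 12 highest in blastocysts, the 6 with ranks farthest apart and the genes at the boundary, passing over clone names. Further genes named as examples were chosen after their values were seen. Members, lists and markers were chosen with earlier results of these data known, and roles were assigned after the members were seen. Alternatives changed the background correction, the detection call, the probes counted, the flagged spots, the names, the list size and the arrays. Requiring another detected probe and taking 1 probe per gene were added after seeing the data. 2 members, 1 of them in the first 40, are counted but not reported here by name.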

Additional observations from a re-analysis of the deposited data

How the results depend on the processing

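No paired analysis was possible because each ooplast group has 1 array and no test was run. The count of genes above background on both ooplast arrays was 10869, 14961 with the software's weaker call of a positive and significant signal, and 9192 with 1 probe per gene. Of the 500 members, 485 were kept with the uncorrected mean signal and 485 with normexp correction, 500 with the authors' deposited values, whose order within each array is the same by construction, and 384 and 433 when the climacteric or the young array was left out. Averaging the ranks of all detected probes of a gene kept 326, and requiring another probe above background kept 195, of the 268 that have another probe. The share common to both ooplast arrays was 64.8% for 500 genes, 58.8% for the first 250 and 73.0% for the first 1000. The number of genes among the 500 moved in 25 of 61 lists and families when another probe was required, in 11 without the climacteric array and in 6 without the young array. Probes near background, where 18 of 61 lists moved with the weaker call, limit what can be said of families called absent.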
